A study of Homo sapiens with 9 samples.

Results

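Chromosome 19 carries the densest runs of zinc finger genes in the human genome, and the 157 genes described here are its protein-coding genes with a ZNF symbol that were expressed in HCT116 cells. They were selected on the table of 63677 genes by biotype, chromosome, a symbol made of ZNF, digits and an optional letter, and a mean normalized count of at least 10 over all libraries. Of 250 candidates (ZNF473 is outside the rule), 93 fell under that level and 45 of these had no read in any library. At the edge of the rule, ZNF404 was inside with a mean of 11.4 and ZNF564 was outside with 8.75, and neither value was tested. HCT116 is a human colorectal carcinoma cell line, labelled wild type, and polyadenylated RNA was sequenced 48 h after transfection of an siRNA. The 3 groups were siControl (a control siRNA), siRNF40 and siTG2, each with 3 libraries, and all 9 share the line, the transfection reagent and the time. RNF40 is a ubiquitin ligase that acts with RNF20 on histone H2B, and TG2, encoded by TGM2, is a transglutaminase that can attach serotonin to glutamine 5 of histone H3. The series title places its question in the transcriptional role of that histone mark in colorectal cancer.

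A C2H2 zinc finger is a short protein loop held by a pair of cysteines and a pair of histidines around a zinc ion, and runs of fingers read DNA sequence. Many genes of this family also encode a KRAB domain, which recruits the scaffold TRIM28 and, through it, the methyltransferase SETDB1 and other heterochromatin proteins, mostly at transposable elements. The genes arose by repeated tandem duplication, so neighbours in a cluster are often close copies of each other, and the bodies of many of them carry heterochromatin marks themselves.

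Library depth was 29161285 to 35743918 reads assigned to genes. RNF40 was measured at 3004, 2784 and 2565 normalized counts in the siControl libraries and at 535, 497 and 528 in the siRNF40 libraries, so 18.7% was left. TGM2 was at 559, 702 and 554 in siControl and at 59.4, 121 and 155 in siTG2, so 18.5% was left. For both targets the groups did not overlap and the two-sided exact permutation p was 0.1, the smallest that 3 against 3 libraries allow. Of the 7 colon epithelial markers, CDH1, EPCAM, KRT8, KRT18 and KRT19 were abundant, while VIL1 (2.48) and LGALS4 (2.67) were near 0. The sum of the 7 ran from 86932 to 95401 over siControl libraries, from 129020 to 155850 over siRNF40 and from 77585 to 88695 over siTG2. None of the 5 leukocyte markers reached 10. Of the 6 fibroblast markers, DCN and LUM were at 0 and COL1A1 carried most of the sum, which ran from 822 to 997 over siControl libraries, from 1371 to 1705 over siRNF40 and from 1017 to 1172 over siTG2. RN7SL2, a small cytoplasmic RNA, ran from 812 to 1023 over siControl and from 820 to 2317 over siTG2, and in siRNF40 it was at 2760 and 2689 in replicates 2 and 3 and at 7842 in replicate 1. The part of these genes in any result was not tested. Genes with a read numbered 25162 to 25548 in the siControl and siRNF40 libraries and 27123 to 27602 in those of siTG2. The labels do not say that replicates came from separate cultures, so p-values measure the spread between these libraries, which may be technical.

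The genes are set in 9 clusters, which are runs of members whose start positions follow each other by at most 1 Mb, with 5 or more members each. In order along the chromosome, and with positions in Mb of the hg19 build, these are cluster A (7.1 to 9.9, 13 genes), B (11.6 to 12.7, 12 genes), C (21.1 to 21.9, 8 genes), D (35.2 to 35.4, 5 genes), E (36.7 to 38.2, 12 genes), F (44.0 to 45.6, 20 genes), G (52.1 to 53.9, 24 genes), H (56.0 to 56.6, 9 genes) and I (57.7 to 59.0, 35 genes). The other 19 members lie outside these runs. On the short arm there are 45 members and on the long arm 112.

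The sequences shown first hold a word found in many genes of cluster G. The 7-base word GTCTTCA was picked out in an earlier look at these same libraries as the word most tied to lower levels in siRNF40, so its relation to that comparison is a description and supports nothing. In GENCODE 29 transcripts, 1 per gene, 51 of the 157 members (32.5%) held the word in the coding sequence and 29 (18.5%) in the 3' UTR, against 15.9% and 12.9% of 12974 protein-coding genes. Of the 92 coding copies, 59 (64.1%) lay inside a match to the finger pattern. In the coding copies printed here the word follows the codons of the second cysteine and the next residues, a stretch that is repeated from finger to finger. The commonest base at each position around those 59 copies and 3 single copies are shown 5' to 3', with the word in capitals.
Commonest base: atgtggcaagGTCTTCAgtcataactc
ZNF616, coding base 1165: atgtggcaagGTCTTCAgtaaacgttc
ZNF766, coding base 835: gtgtggcaagGTCTTCAgtcgaattac
ZNF83, coding base 889: gtgtggcaagGTCTTCAgtcacaagtc
The same surroundings recurred in the 3' UTRs of cluster G, where the word is counted from the first base after the stop codon.
ZNF808, 3' UTR base 353: gtgtggcaagGTCTTCAgtccgaggtc
ZNF701, 3' UTR base 689: gtgtggcaagGTCTTCAgtccgaggtt
ZNF845, 3' UTR base 604: gtgtggcaagGTCTTCAgtctgagatc
ZNF28, 3' UTR base 1192: gtgtggtaagGTCTTCAgtccgagatc
ZNF468, 3' UTR base 1129: gtgtggaaggGTCTTCAgtccaaggtc
ZNF611, 3' UTR base 607: gtgtggcaagGTCTTCAgtccaagatc
ZNF816, 3' UTR base 181: ctgtgacaagGTCTTCAgtcaagcttc
Over the 20 flanking bases, the 34 copies in the 3' UTRs of cluster G matched the commonest finger bases at a median of 13, and the 19 copies in the 3' UTRs of other members at a median of 6. The 59 coding copies that set those bases matched at a median of 10. Some of the 59, such as those of ZNF616, ZNF766 and ZNF83, lie in cluster G itself, so its 3' UTRs were not compared with an independent set. Within those 3' UTRs, 15 of 21 neighbouring pairs of copies in cluster G started 162 to 168 bases apart, a window set after the spacings were seen. In coding sequences, 20 of 41 neighbouring pairs were a multiple of 84 bases apart, which is the length of 1 finger with its linker (28 residues).

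In siRNF40 a smaller share of these genes than of all genes was called, 36.3% beside 45.3%. ZNF genes of other chromosomes were at 40.9%. The median level was 281 normalized counts over members and 914 over 12974 protein-coding genes, and the part of level in these shares was not tested. In siRNF40 against siControl, 27 of the 157 members were called higher, 17.2% beside 21.7% of the 17663 genes tested, and 30 were called lower, 19.1% beside 23.6%. Calls are those of limma, with p adjusted by Benjamini and Hochberg over all 17663 genes and a threshold of 0.05. Fold changes are on the scale of log2 of the normalized count plus 1, which understates the change of low genes. The median log2 fold change was -0.02 over members and 0.02 over all genes tested. Other protein-coding genes of chromosome 19 had another balance, with 342 of 838 called higher and 91 lower (median 0.26), while ZNF genes of other chromosomes had 29 of 220 higher and 61 lower (median -0.03). A change of at least 2-fold was reached by 2 members called higher and 7 called lower, 1.27% and 4.46% beside 3.53% and 5.1% of all genes.

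**Figure D1:**
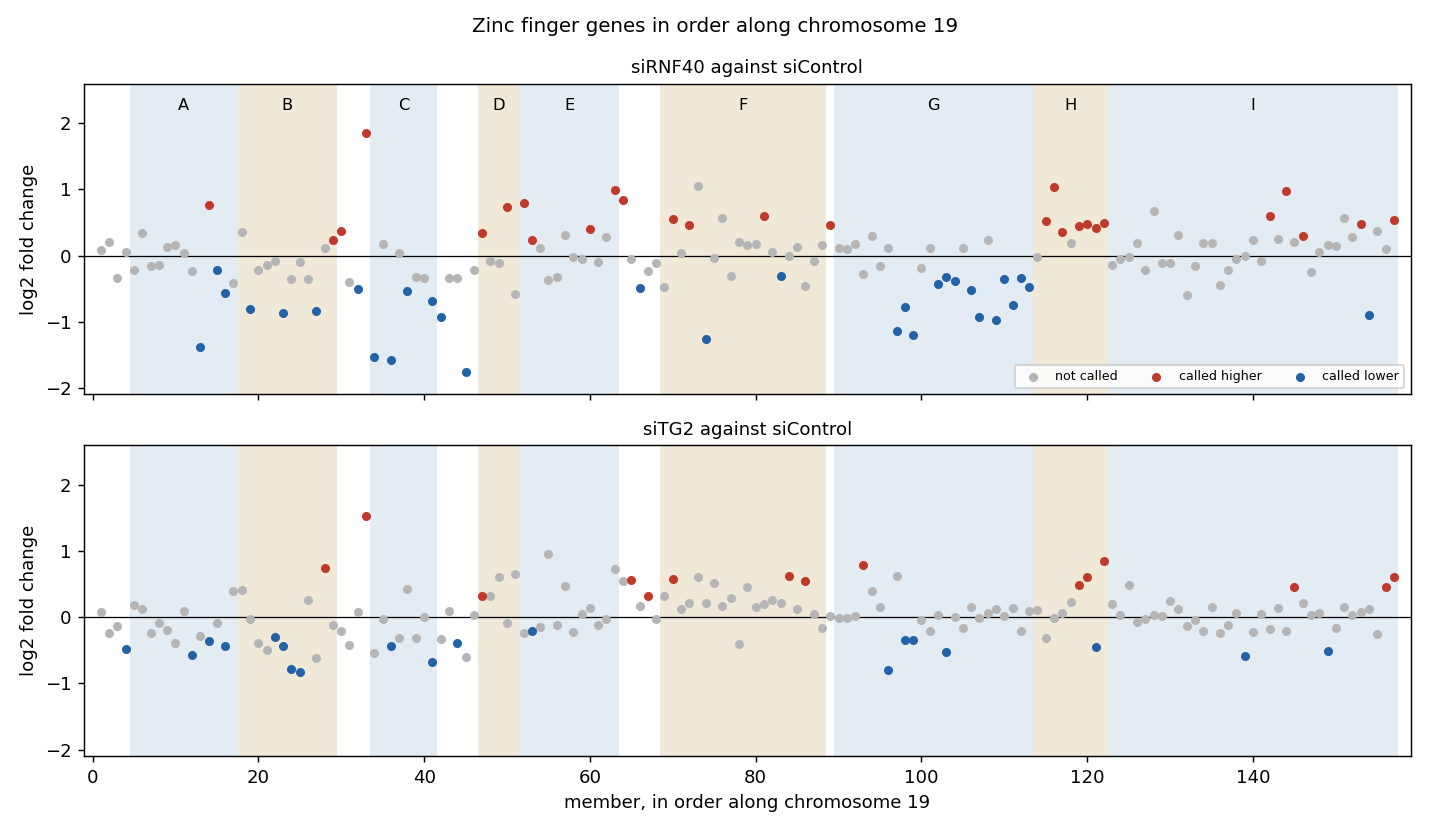
Log2 fold change (vertical axis) of each of the 157 members in order along chromosome 19 (horizontal axis), for siRNF40 (top) and siTG2 (bottom) against siControl, both with the same 3 siControl libraries. Shading marks clusters A to I, and colour marks the limma call; the 13 lower calls of cluster G and the 7 higher calls of cluster H stand next to each other in the top panel.

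The members with the largest decreases in siRNF40 came from several clusters. ZNF254 (ENSG00000213096, chr19:24216276-24312654 in hg19, plus strand), outside the clusters, had 250, 214 and 200 normalized counts in siControl, 52.0, 54.6 and 95.0 in siRNF40 and 126, 139 and 173 in siTG2. All 3 groups were separate, with siRNF40 lowest. Its log2 fold change was -1.75 (SE 0.23, adjusted p = 5.6e-06) in siRNF40 and -0.60 (SE 0.23, adjusted p = 0.058) in siTG2, and the direct difference of -1.15 was called (adjusted p = 0.00036). ZNF714 of cluster C (ENSG00000160352, chr19:21264965-21308073, plus strand) had 1313, 1069 and 1486 in siControl, 412, 505 and 369 in siRNF40 and 1027, 824 and 986 in siTG2. Its decrease was -1.59 (SE 0.13, adjusted p = 1.5e-08) in siRNF40. The siTG2 value of -0.44 (adjusted p = 0.015) lost its call with equal library totals, quantile normalization or limma without trend, and without siControl replicate 1, siControl replicate 3 or siTG2 replicate 2 (adjusted p up to 0.1 over all settings). ZNF85, of the same cluster, had 156, 166 and 146 in siControl and 52.0, 68.4 and 41.6 in siRNF40, a decrease of -1.54 (SE 0.25, adjusted p = 4.9e-05). ZNF430, which lies between them, did not pass the test (0.17, adjusted p = 0.28).

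ZNF45 of cluster F (ENSG00000124459, chr19:44416781-44439430, minus strand) differed between the knockdowns. It had 753, 611 and 642 normalized counts in siControl, 321, 247 and 265 in siRNF40 and 805, 682 and 845 in siTG2. Only the siRNF40 libraries stood apart, with a log2 fold change of -1.27 (SE 0.13, adjusted p = 1.9e-07) beside 0.22 (adjusted p = 0.22) in siTG2, and a direct difference of -1.49 (SE 0.13, adjusted p = 1.3e-08). ZNF426 of cluster A fell from 146, 111 and 113 to 46.9, 32.4 and 65.1 in siRNF40 (-1.38, SE 0.27, adjusted p = 0.00029), with 115, 94.2 and 93.8 in siTG2. ZNF45 and ZNF426 each overlap no other tested gene in the annotation.

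The largest increase in either knockdown was that of ZNF506 (ENSG00000081665, chr19:19896648-19932560, minus strand), a KRAB-pattern gene outside the clusters. It had 44.2, 60.7 and 61.0 normalized counts in siControl, 188, 202 and 210 in siRNF40 and 173, 134 and 175 in siTG2. Both knockdowns were above every siControl library. The log2 fold changes were 1.85 (SE 0.21, adjusted p = 6.7e-07) in siRNF40 and 1.53 (SE 0.21, adjusted p = 1.5e-05) in siTG2, and the direct difference of 0.32 (SE 0.21) was not called (adjusted p = 0.20). The 2 comparisons share their siControl libraries. ZNF506 overlaps 2 tested genes with clone names, and as the sources used here do not say whether counting used strand, reads of overlapping genes cannot be told apart.

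Other increases in siRNF40 were those of ZNF524, ZNF587B, ZNF565 and ZNF586. ZNF524 of cluster H had 174, 133 and 192 normalized counts in siControl, 275, 339 and 418 in siRNF40 and 124, 176 and 202 in siTG2. Its increase was 1.04 (SE 0.21, adjusted p = 0.00038), and it overlaps FIZ1. ZNF587B of cluster I had 352, 365 and 420 in siControl, 779, 822 and 637 in siRNF40 and 337, 343 and 304 in siTG2, an increase of 0.97 (SE 0.13, adjusted p = 4.0e-06) beside -0.21 (adjusted p = 0.23) in siTG2. It overlaps ZNF586, ZNF587 and ZNF814, and 72.0% of its 75-base windows were unique among transcripts, so reads may be shared with these copies. ZNF565 (0.79) overlaps ZNF146. ZNF573 (0.99), ZNF546 (0.84) and ZNF586 (0.61) were called higher too, but each lost its call when 1 library was left out: ZNF573 without siControl replicate 2 or siRNF40 replicate 2 (adjusted p up to 0.092), ZNF546 without siRNF40 replicate 1 (0.051) and ZNF586 without siRNF40 replicate 1 (0.054).

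**Figure D2:**
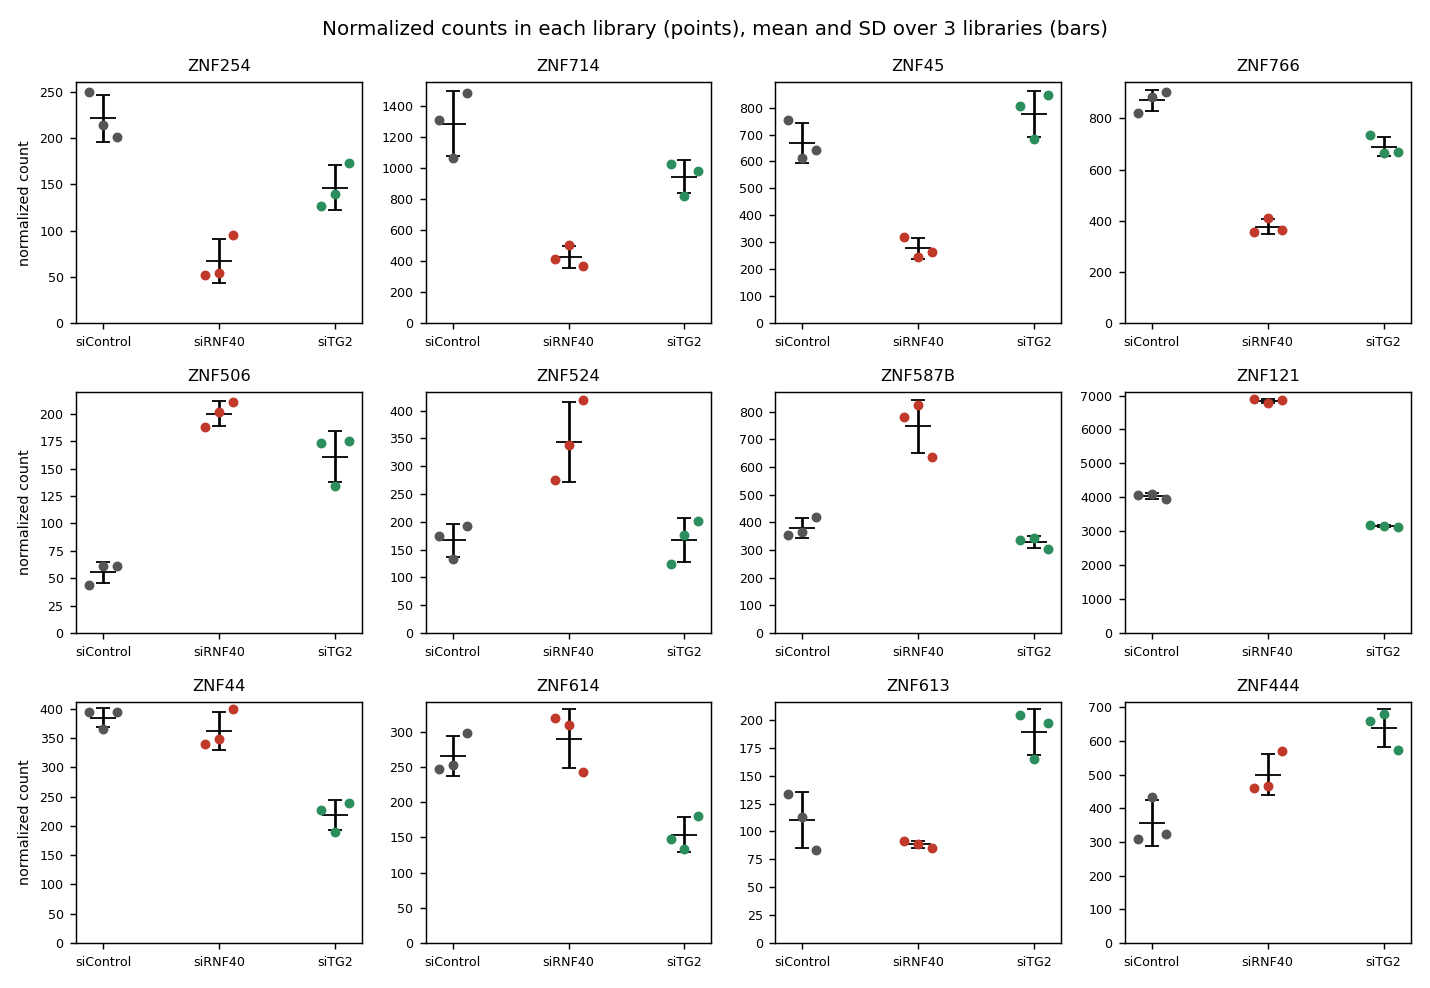
Normalized counts (vertical axes, each from 0) of 12 named members in every library, with points for single libraries and bars for the mean and SD over 3. ZNF254, ZNF714, ZNF45 and ZNF766 are lowest in siRNF40, ZNF506 is high in both knockdowns, and ZNF44 and ZNF614 are low in siTG2 alone.

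Cluster G held the most lower calls. In siRNF40, 13 of its 24 genes were called lower and 0 higher, beside 23.6% and 21.7% of all genes, and the median was -0.34. Per library, the median of its genes relative to their siControl means was -0.25, -0.27 and -0.37 in siRNF40, and -0.04 to 0.04 in siControl. The count of lower calls lay between 9 (without siControl replicate 1, or without siRNF40 replicate 3) and 13 over all settings of the fit, with 0 higher in each. Of its 9 genes that overlap no other gene 3 were called lower, and their median was -0.16. In siTG2 the same cluster had 1 higher and 4 lower calls, 4.17% and 16.7% beside 12.8% and 18.5% of all genes. Its median there was 0.015, and turned negative under quantile normalization (-0.048) and without siTG2 replicate 3 (-0.050), siTG2 replicate 1 (-0.018) or siControl replicate 3 (-0.001). It was 0.157 with equal library totals and 0.041 without siTG2 replicate 2.

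ZNF766 (ENSG00000196214, chr19:52772824-52795977, plus strand) led the cluster. It had 822, 885 and 903 normalized counts in siControl, 357, 410 and 364 in siRNF40 and 733, 666 and 669 in siTG2. The siRNF40 decrease was -1.21 (SE 0.10, adjusted p = 2.1e-08). The siTG2 decrease of -0.33 (adjusted p = 0.018) lost its call without siControl replicate 2 or 3 or siTG2 replicate 2 or 3, and with equal library totals (adjusted p up to 0.17). ZNF816 had 201, 177 and 197 in siControl, 103, 94.3 and 95.0 in siRNF40 and 175, 253 and 206 in siTG2 (-0.97 in siRNF40, SE 0.18, adjusted p = 0.00023). ZNF468 had 626, 670 and 744 in siControl, 390, 401 and 285 in siRNF40 and 695, 612 and 716 in siTG2 (-0.94, SE 0.13, adjusted p = 1.0e-05). In both genes siTG2 overlapped siControl.

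The 24 genes of cluster G split by the word whose surroundings are printed above. Of the 18 that held it in the transcript, 13 were called lower in siRNF40, and of the 6 that did not, 0 were, with medians of -0.41 and 0.11. These 6 genes, ZNF175, ZNF577, ZNF649, ZNF613, ZNF350 and ZNF615, are the first 6 of the cluster along the chromosome, so the word and the position cannot be told apart here. By number of copies, 1 of 3 genes with 1 copy was lower, 1 of 2 with 2 copies, and 11 of 13 with 3 or more (median -0.43). The 2 exceptions with 3 or more were ZNF808 (0.11, with 78.7% of windows unique) and ZNF480 (-0.19), both named after their values were seen. ZNF320 held 1 copy, was at 0.24 and had 0.52% of its windows unique, so its count may hold reads of near-identical transcripts.

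**Figure D3:**
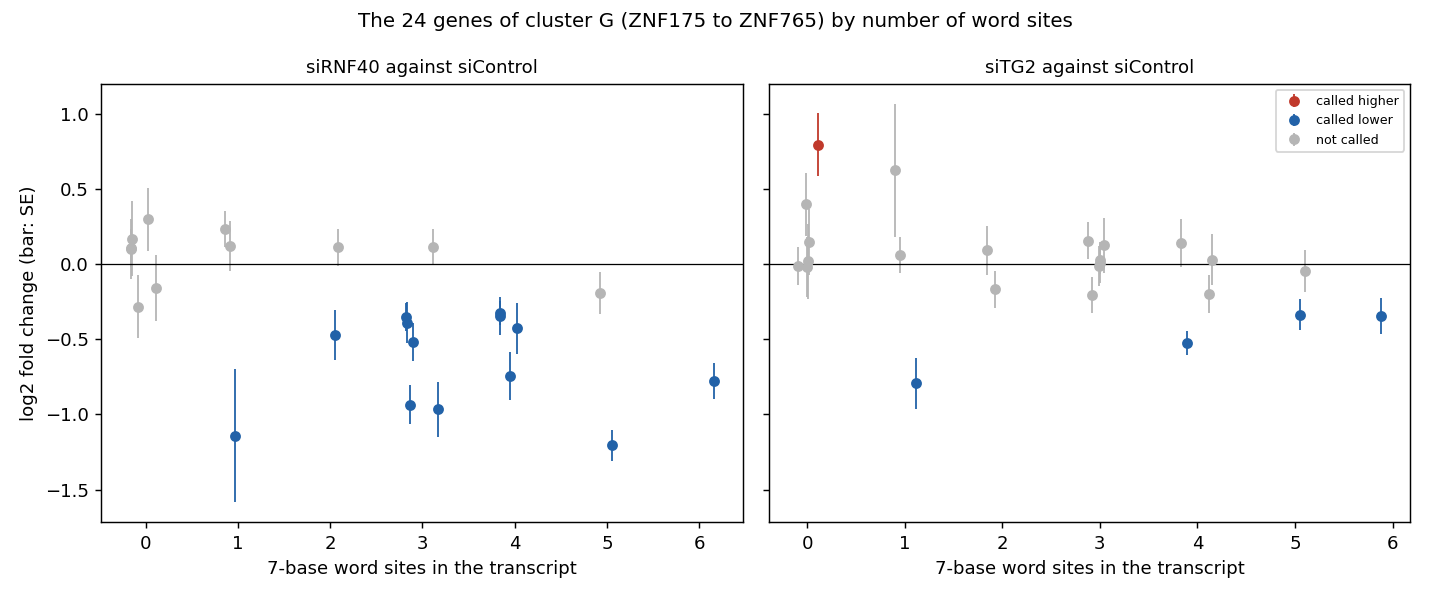
Log2 fold change (vertical axis, bars are SE) of the 24 genes of cluster G against the number of copies of the word GTCTTCA in the transcript (horizontal axis), for siRNF40 (left) and siTG2 (right). In the left panel 11 of the 13 genes with 3 or more copies were called lower and 0 of the 6 genes without a copy.

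Across all members the same split gave 24 lower and 7 higher calls among 72 genes with the word in the transcript (33.3% and 9.72%, median -0.13). Among 85 without it there were 6 lower and 20 higher (7.06% and 23.5%, median 0.10). Outside cluster G, the 54 members with the word had 11 lower and 7 higher calls (20.4% and 13.0%). The 79 without it had 6 lower and 20 higher (7.59% and 25.3%). Of all genes 23.6% were called lower and 21.7% higher. Over all protein-coding genes searched, members included, 48.7% of the 3589 with the word in the transcript and 21.6% of the 9385 without it were called lower, and as the word was picked on this comparison these counts are a description. In siTG2, members with the word had 9 lower and 5 higher calls (12.5% and 6.94%). Those without it had 10 lower and 10 higher (11.8% each), beside 18.5% and 12.8% of all genes. The siRNA sequences are not given in the sources used here, so whether the word pairs with any of them was not tested.

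Cluster H, the neighbour of cluster G, went the other way. In siRNF40, 7 of its 9 genes were called higher and 0 lower (median 0.44), 77.8% and 0% beside 21.7% and 23.6% of all genes and 40.8% and 10.9% of the other protein-coding genes of chromosome 19. The per-library medians were 0.39, 0.32 and 0.57 in siRNF40 and -0.08 to 0.11 in siControl. The number called higher was 6 or 7 in every setting of the fit. Of its 9 genes 6 overlap a tested gene. Of its 3 genes that overlap no other gene 2 were called higher, and their median was 0.36. ZNF579 (ENSG00000218891, chr19:56088899-56092211, minus strand) had 508, 499 and 557 normalized counts in siControl, 755, 650 and 866 in siRNF40 and 423, 466 and 374 in siTG2. It rose by 0.53 (SE 0.12, adjusted p = 0.0016) in siRNF40, and its siTG2 value of -0.31 was not called (adjusted p = 0.06). ZNF444, a SCAN-domain gene at the end of the cluster, rose in both knockdowns, from 308, 435 and 323 to 461, 467 and 569 in siRNF40 (0.50, SE 0.14, adjusted p = 0.0062) and to 660, 680 and 573 in siTG2 (0.86, SE 0.14, adjusted p = 0.00010). ZNF581 rose in both as well (0.47 and 0.60), and it overlaps ZNF580 and CCDC106. ZNF628 did not pass the test in either (-0.02 and 0.11).

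The 9 genes of cluster H differ in make-up from the rest. None of them matched the KRAB pattern, beside 122 of all 157 members and 23 of 24 in cluster G. Their median span was 8.45 kb beside 21.9 kb for members, they had a median of 6 finger matches beside 12, and their 3' UTRs had a median GC content of 61.1% beside 39.5%. None held the word GTCTTCA. Over all members, those without the KRAB pattern had 12 higher and 3 lower calls of 35 in siRNF40 (median 0.16), and those with it had 15 higher and 27 lower of 122 (median -0.07). These are 34.3% and 8.57% without it and 12.3% and 22.1% with it, beside 21.7% and 23.6% of all genes. Outside cluster G, the 99 members with it had 15 higher and 15 lower calls (15.2% each). The 34 without it had 12 and 2 (35.3% and 5.88%). The 9 genes of cluster H, with 7 higher and 0 lower calls, are among those without it, and the split was not repeated without them. Across the 157 members, 3' UTR GC content and the siRNF40 fold change had a Spearman rho of 0.33, beside 0.30 over 12974 protein-coding genes, a description across genes that share libraries and base composition.

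The promoters of the members were searched for a GC box and for CpG. From RefSeq (GRCh38.p14), 300 bases from 250 before to 50 after the start were matched by symbol for 140 of 157 members. The GC box, GGGCGG or CCGCCC on the other strand, was present in 63.6% of these and in 45.0% of all 35116 promoters of that length. No filter on expression or gene type was set on the 35116 promoters, while members passed both. The part of these filters in the differences from all promoters was not tested. It was in 15 of 20 promoters of cluster G, 7 of 8 of cluster H and 1 of 12 of cluster E. Median CpG counts were 25 in G, 27.5 in H, 10 in C and 14 over all promoters. Of members called in siRNF40, the box was in 15 of 23 called higher and 22 of 28 called lower. A promoter of a gene that fell and 1 of a gene that rose are shown, with the GC box in capitals.
ZNF766, chr19:52269337-52269636, plus strand: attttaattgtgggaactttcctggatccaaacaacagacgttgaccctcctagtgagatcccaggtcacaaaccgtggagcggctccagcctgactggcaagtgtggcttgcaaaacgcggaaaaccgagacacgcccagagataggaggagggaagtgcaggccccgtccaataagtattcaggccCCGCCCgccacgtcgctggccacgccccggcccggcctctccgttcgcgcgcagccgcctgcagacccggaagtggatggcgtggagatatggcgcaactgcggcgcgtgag
ZNF579, chr19:55580799-55581098, minus strand: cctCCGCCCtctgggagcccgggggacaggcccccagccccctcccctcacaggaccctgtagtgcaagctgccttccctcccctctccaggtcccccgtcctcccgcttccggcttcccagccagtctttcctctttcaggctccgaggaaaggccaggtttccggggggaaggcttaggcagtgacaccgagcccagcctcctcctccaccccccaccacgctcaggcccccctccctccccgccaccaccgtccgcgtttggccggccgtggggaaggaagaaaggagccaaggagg
Each holds 1 GC box, and the ZNF766 promoter has 26 CpG and that of ZNF579 15.

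The other clusters held fewer calls in siRNF40. Clusters A, B and C had medians of -0.16, -0.18 and -0.44, with 1, 1 and 0 higher and 3, 3 and 4 lower calls. Each median was negative in all 17 alternatives tried for cluster medians. Cluster E had 4 higher and 0 lower calls (0.18), cluster F 3 and 2 (0.09), cluster I 5 and 1 (0.15) and cluster D 2 and 0 (-0.08). Beside 21.7% of all genes called higher, the shares were 33.3% in E, 15% in F, 14.3% in I and 40% in D, and beside 23.6% called lower they were 23.1% in A, 25% in B and 50% in C. Without siRNF40 replicate 3 the median of C was -0.28 and that of I 0.098, and without siRNF40 replicate 2 that of B was -0.27 and that of F 0.050. Without siControl replicate 1 or 2 the median of I was 0.045 or 0.071, and without siControl replicate 3 that of F was 0.037. The medians of E and I turned negative, at -0.24 and -0.05, when only members that overlap no other gene were kept, which left 2 and 11 genes. The median of D turned positive, at 0.02, without siControl replicate 2, and was -0.04 without siControl replicate 1, -0.15 without siControl replicate 3 and -0.02 without siRNF40 replicate 2. By arm, a split made after the values were seen, the short arm had 4 higher and 13 lower calls (8.89% and 28.9%) and the long arm 23 and 17 (20.5% and 15.2%). In siTG2, with the same siControl libraries, the short arm had 2 higher and 11 lower calls (4.44% and 24.4%, median -0.24). The long arm had 13 and 8 there (11.6% and 7.14%, median 0.07), beside 12.8% and 18.5% of all genes.

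**Figure D4:**
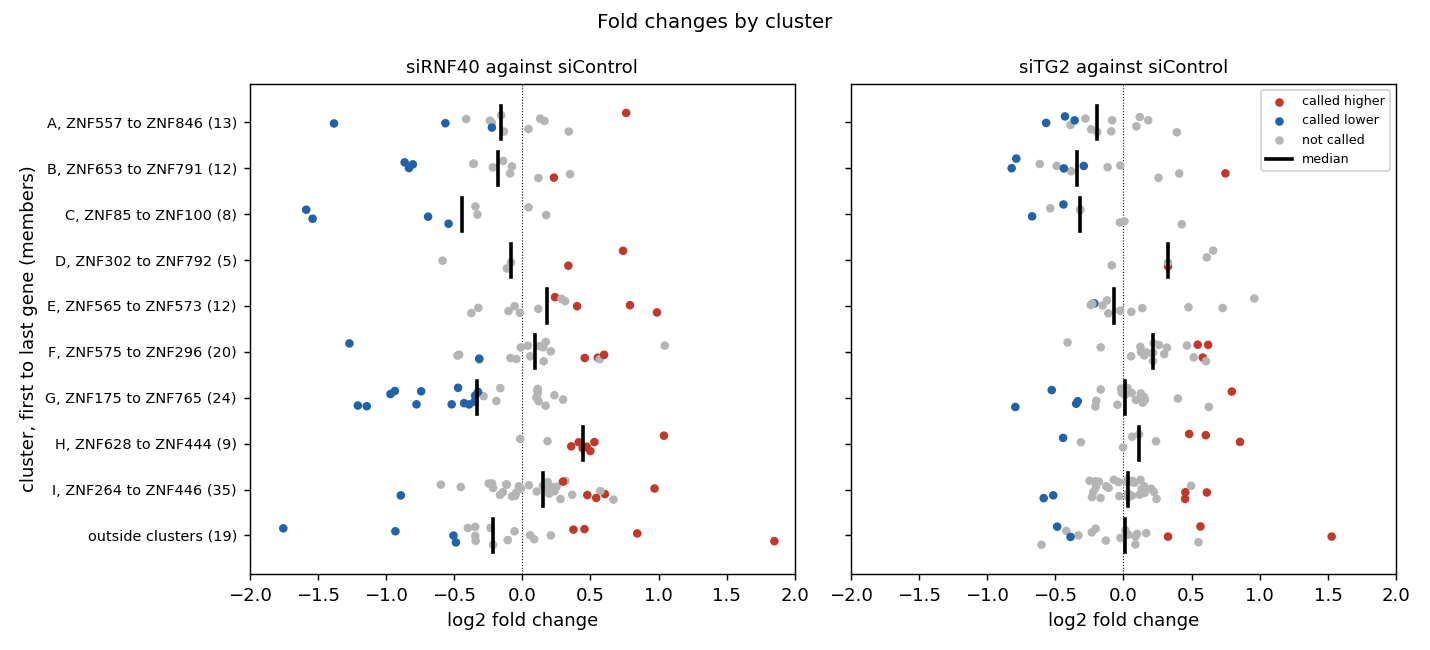
Log2 fold change (horizontal axis) of every member by cluster (vertical axis, with first and last gene and number of members), for siRNF40 (left) and siTG2 (right) against siControl. Black bars are medians, which in the left panel run from -0.44 in cluster C to 0.44 in cluster H.

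In siTG2 fewer members were called than in siRNF40, and the balance of higher and lower calls moved with the scaling. Against siControl, 15 of 157 members were called higher (9.55%, beside 12.8% of all genes) and 19 lower (12.1%, beside 18.5%), with a median of 0.03 beside -0.01 over all genes. With equal library totals in place of the authors' size factors the median of all genes moved to 0.13, the members were 27 higher and 11 lower, and their median of 0.17 was 0.04 above that of all genes. Quantile normalization gave 8 higher and 22 lower, beside 2606 and 2616 of all genes, and a median of members of -0.04 beside 0.00 over all genes. The count of higher calls was 7 without siTG2 replicate 1 and 9 without siControl replicate 2.

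In siTG2, clusters A and C had 0 higher and 3 and 2 lower calls (23.1% and 25% lower), with medians of -0.19 and -0.32. Cluster B had 1 higher and 4 lower calls, 8.33% and 33.3% of its 12 genes, beside 12.8% and 18.5% of all genes. Its median was -0.34, and -0.22 without siTG2 replicate 2. The medians of A, B and C were each negative in all 17 alternatives tried for cluster medians. ZNF44 (ENSG00000197857, chr19:12335501-12405702, minus strand) had 394, 366 and 395 normalized counts in siControl, 341, 348 and 399 in siRNF40 and 228, 189 and 239 in siTG2. Only siTG2 stood apart (-0.82, SE 0.14, adjusted p = 0.00014), and the direct difference of 0.73 was called (adjusted p = 0.00016). ZNF614 of cluster G had 247, 252 and 299 in siControl, 319, 310 and 242 in siRNF40 and 148, 133 and 181 in siTG2 (-0.79, SE 0.17, adjusted p = 0.0013). ZNF136 fell by 0.79 (adjusted p = 0.011), and lost its call without siControl replicate 3 or siTG2 replicate 2 (adjusted p up to 0.075).

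ZNF274, a KRAB zinc finger protein known to bind the 3' ends of other zinc finger genes and to bring SETDB1 there, fell in siTG2. It had 1055, 994 and 1023 normalized counts in siControl, 1118, 1074 and 1227 in siRNF40 and 688, 797 and 669 in siTG2. The siTG2 fold change was -0.52 (SE 0.09, adjusted p = 0.00033), the siRNF40 value was 0.15 (adjusted p = 0.20), and the direct difference of 0.67 was called (adjusted p = 6.9e-06). ZNF551 (-0.59), ZNF266 (-0.57), ZNF83 (-0.53) and ZNF100 (-0.67) were also called lower in siTG2.

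Among increases in siTG2, ZNF613 of cluster G had 134, 113 and 83.7 in siControl, 91.8, 88.8 and 85.4 in siRNF40 and 204, 165 and 197 in siTG2. It rose in siTG2 (0.80, SE 0.21, adjusted p = 0.0069), its siRNF40 value was -0.28 (adjusted p = 0.29), and the direct difference was -1.08 (adjusted p = 0.00024). Cluster F had 3 higher and 0 lower calls, 15% and 0% beside 12.8% and 18.5% of all genes, and a median of 0.22, with 18 of its 20 genes above 0. Its per-library medians in siTG2 were 0.29, 0.24 and 0.20, beside -0.10 to 0.06 in siControl. The cluster's median was 0.145 with quantile normalization and 0.36 with equal library totals. ZNF235 (0.62, adjusted p = 0.03) led that cluster, but lost its call without siControl replicate 2 or 3 or siTG2 replicate 1 or 2 (adjusted p up to 0.12). ZNF490 (0.75, adjusted p = 0.049) lost its call without 7 of the 9 libraries, each left out in turn, and had 29.4% of its windows unique.

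Compared directly, 28 members were higher and 38 lower in siRNF40 than in siTG2, 17.8% and 24.2% beside 26.6% and 26.6% of all genes. With equal library totals, which moved the median of all genes from -0.01 to -0.19, the members were 14 higher and 56 lower. Quantile normalization gave 35 higher and 33 lower, beside 4778 and 4684 of all genes. Against siControl libraries that both comparisons share, ZNF121, ZNF146 and ZNF787 were called higher in siRNF40 and lower in siTG2. More members were called the same way in both knockdowns, 7 higher and 7 lower, and 0 were lower in siRNF40 and higher in siTG2. As the siControl libraries are shared, the calls in the knockdowns are not independent of each other. The same counts over all genes are not given here, so whether members differ from other genes in this was not tested.

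ZNF121 (ENSG00000197961, chr19:9671029-9695209, minus strand) had the largest difference of these 3. It had 4072, 4104 and 3946 normalized counts in siControl, 6906, 6785 and 6858 in siRNF40 and 3181, 3149 and 3124 in siTG2. The 3 groups were far apart relative to their spread. The fold changes were 0.76 (SE 0.06, adjusted p = 5.5e-09) and -0.36 (SE 0.06, adjusted p = 0.00012), and the difference was 1.12 (SE 0.06, adjusted p = 1.6e-11). ZNF562, a KRAB-pattern gene in the same cluster, fell in both knockdowns (-0.56 and -0.43). Per kb of annotated exon, ZNF146 had the highest level of the members in siControl (2271 normalized counts per kb), ahead of ZNF121 (560), and the median member had 66.3.

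ZNF146 is made up almost only of fingers and is known to be overexpressed in colon and pancreatic tumours. It had 8752, 8821 and 8702 normalized counts in siControl, 10550, 10410 and 10070 in siRNF40 and 7725, 7316 and 7631 in siTG2. It rose by 0.24 (SE 0.06, adjusted p = 0.0017) and fell by 0.21 (adjusted p = 0.0066), and the decrease lost its call with equal library totals and with quantile normalization (adjusted p up to 0.85). The overlapping gene ZNF565 had 67.4, 108 and 75.4 in siControl, 132, 162 and 136 in siRNF40 and 66.0, 69.5 and 72.3 in siTG2.

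Genes of a list of KRAB corepressor and heterochromatin genes, called the corepressor list here, changed in both directions. Of 26 listed genes, 6 were called higher and 9 lower in siRNF40 (median 0.00), 23.1% and 34.6% beside 21.7% and 23.6% of all genes. In siTG2, 3 were called higher and 8 lower (median -0.11), 11.5% and 30.8% beside 12.8% and 18.5%. In siRNF40, KIAA1551 fell by 0.93 (adjusted p = 1.0e-08), the H3K9 methyltransferase SUV39H1 by 0.82 (adjusted p = 0.0012) and UHRF1, which guides maintenance DNA methylation, by 0.77 (adjusted p = 8.0e-08), while MORC2, an ATPase that works with the HUSH silencing complex, rose by 0.73 (adjusted p = 2.5e-07). TRIM28 had 8224, 8560 and 7634 normalized counts in siControl, 10106, 9354 and 10373 in siRNF40 and 6787, 7439 and 7315 in siTG2, called higher (0.29, adjusted p = 0.0012) and lower (-0.18, adjusted p = 0.041) in turn. SETDB1 was at 0.17 (adjusted p = 0.12) and 0.08 (adjusted p = 0.53). In siTG2, CHD3, a chromatin remodeller, rose by 0.78 (adjusted p = 2.2e-08).

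The authors' deposited tables of the 2 knockdowns called 26 members higher and 27 lower in siRNF40, and 14 higher and 19 lower in siTG2. Of the calls made here, 53 of 57 and 32 of 34 were the same there, and 0 were opposite.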

How the data were processed

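Polyadenylated RNA of 9 HCT116 libraries was analysed from the deposited gene table. Per the submitters' processing notes, Trim Galore 0.4.1, STAR 2.7.0, HTSeq 0.12.4 and DESeq2 were used, and hg19 and hg38 are both named; coordinates in the table are hg19. The deposited signal is gene counts divided by a size factor per library, and all values (100%) were whole reads within 0.001 reads after division by the library's step. The authors' deposited comparison tables hold log2 fold changes, a Wald score and p-values. Columns marked NC were taken as siControl.

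The main test was limma 3.58.1 with trend in R 4.3.3 on log2(value + 1), 9 libraries in 1 fit with 3 group means, over genes with a mean of at least 10, two-sided, tested first on simulated data. edgeR 4.0.16 and DESeq2 1.42.0 on recovered reads were alternatives. Levels are normalized counts, and SE is limma's.

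Named members are, per knockdown, the 8 largest increases and the 8 largest decreases that met 3 conditions. These were a call, a mean level of 50 or more, and knockdown libraries all above or all below those of siControl. Overlap with another gene on the chromosome did not exclude a member. The 5 largest direct differences each way were named too. So were the 2 leading called members and the top uncalled member per cluster, and the 3 highest means. Others were named after their values were seen. Members and lists were chosen with earlier results of these data known, and the splits by word, KRAB pattern, window uniqueness, overlap and arm were made after results were seen. The KRAB pattern was revised once after its first version had been compared with the fold changes: that version matched 112 members (15 higher and 25 lower in siRNF40, median -0.08) and left 45 (12 and 5, 0.13). Finger patterns were 2 to 4 residues between cysteines, 12 to the first histidine and 3 to 5 between histidines, on translated GENCODE 29 coding sequences. Opposite calls were looked for among the 66 members called in the direct comparison. A result that the naming rule would give from the corepressor list is not reported here.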

Additional observations from a re-analysis of the deposited data

Results flagged for a closer look

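In 3 members the knockdown effects differed by a test of the difference itself, siRNF40 against siTG2, with a call in each direction against siControl. The difference was 1.120 on the log2 scale for ZNF121, 0.857 for ZNF787 and 0.453 for ZNF146. ZNF787 of cluster H had 752, 830 and 726 normalized counts in siControl, 988, 937 and 1160 in siRNF40 and 518, 658 and 529 in siTG2. These 3 were singled out of the 66 members called in the direct comparison after the members' results were seen. The siTG2 call of ZNF146 was lost with equal library totals and with quantile normalization.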

How the results depend on the processing

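The table was refitted under 21 other settings of scaling, pseudocount, filter, tool and libraries, with further alternatives on which members count; alternatives that leave out members by the words or by unique windows were chosen after seeing the data. With equal library totals the members' medians were -0.058, 0.174 and -0.233 (siRNF40, siTG2 and direct), siTG2 had 27 higher and 11 lower, the direct comparison had 14 higher, and siTG2 cluster medians were -0.049 (A), -0.195 (B), -0.175 (C), 0.470 (D), 0.074 (E), 0.362 (F), 0.157 (G) and 0.179 (I). With quantile normalization siTG2 had 8 higher, the medians were -0.037 (siTG2) and 0.021 (direct), and siTG2 clusters A, F and I were at -0.087, 0.145 and -0.081. The calls of all genes under both scalings are given above. The direct median was -0.091 with TMM factors and -0.102 with edgeR, and cluster E in siRNF40 was 0.240 at a mean of at least 50. In siRNF40, of the 60 members that overlap a tested gene, 30% were called higher and 20% lower (median 0.12). Of the 97 that overlap no tested gene, 9.28% and 18.6% were (median -0.11), beside 21.7% and 23.6% of all genes. Among the 52 members that overlap no other gene at all, 7 were higher and 8 lower in siRNF40 (median -0.085), 3 and 8 in siTG2, and 9 and 13 directly. Cluster medians there were -0.933 (C), -0.238 (E), 0.007 (F), -0.161 (G) and -0.045 (I) in siRNF40, and -0.319 (A), -0.490 (B) and 0.424 (E) in siTG2. Without members holding GTCTTCA anywhere siRNF40 had 6 lower and a median of 0.103, and without those holding it in the 3' UTR 17 and 0.015. Leaving out 1 library at a time, higher calls in siTG2 ran from 7 to 19, the medians of members from -0.027 to 0.013 (siRNF40), 0.000 to 0.041 (siTG2) and -0.090 to -0.058 (direct), siRNF40 cluster medians from -0.270 to -0.179 (B), 0.130 to 0.190 (E) and 0.045 to 0.166 (I), and siTG2 cluster medians from -0.214 to -0.111 (A), -0.343 to -0.216 (B), 0.311 to 0.433 (D) and -0.110 to 0.019 (E). The cause of these changes was not tested. The replicate numbers did not pair the libraries (same-numbered deviations correlated at -0.0754 to 0.0813); with the number as a replicate block, members were 25 higher and 28 lower in siRNF40, 12 and 17 in siTG2, and 27 and 39 directly. Of named members called, 22 of 34 (siRNF40), 13 of 24 (siTG2) and 24 of 33 (direct) kept their call in every setting. With a gap of 2 Mb, 6 clusters are compared in place of 9. H and I then form 1 cluster of 44 genes, with 12 higher and 1 lower calls in siRNF40 (median 0.19).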
